A study of Mus musculus with 6 samples.

Results

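The cytosolic ribosomal protein genes were examined in B-1a and B-1b cells, the CD5+ and CD5- subsets of innate-like B cells that reside in the peritoneal cavity (PerC). Members were taken by name: gene names of the form Rpl or Rps with a number and an optional A, X, L or L1 ending, together with Rplp0, Rplp1, Rplp2, Rpsa and Fau, without pseudogenes and without the S6 kinases. This rule took 81 of the 7834 gene names in the table, 48 of the large (60S) and 33 of the small (40S) subunit. All 81 had at least 1 FPKM (fragments scaled to transcript length and to the fragments mapped in the library) in at least 2 libraries, as did 7557 genes in all. Both groups were cells of wild-type C57BL/6 mice, male per the methods, without treatment, sorted by flow cytometry. The study gates PerC B-1 cells on B cell surface proteins, with low B220, and divides them by CD5. The age of the mice and the number of animals behind each library were not given in the sources used here, so p-values measure the spread between libraries, which may be technical. Of 3 replicates labelled in each group, 2 were used, because B-1b replicate 3 repeats replicate 1 and B-1a replicate 3 averages the other two, in 286 of 287 rows of these genes in each case.

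The ribosome consists of a small subunit, which reads the mRNA, and a large subunit, which joins amino acids and passes the new chain through an exit tunnel. Cells make its proteins in near equal amounts, and their mRNAs are among the most abundant of a cell. These mRNAs begin with a stretch of pyrimidines, the 5′ terminal oligopyrimidine (TOP) motif, through which mTOR signaling and LARP1 control their translation, and MYC is known to raise the transcription of ribosomal protein genes. In B cells, activation and differentiation into antibody-secreting cells go along with greater ribosome production.

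RefSeq promoter sequences (GRCm38.p6) were found for 60 of the 81 genes. A run of at least 8 pyrimidines between 20 bases before and 30 bases after the start, on the strand of the gene, was present in 35 of 60 (58.3%), against 21.5% of 27025 genes in the table of promoters. Such a run may lie away from the first base, so this count is not one of TOP motifs. A C at the annotated start followed by at least 4 pyrimidines was present in 14 of 60 (23.3%), against 3.0% of all genes. The windows below show the start of 12 genes described later: genes with large differences (Rpl39, Rpl37, Rpl23), both proteins of the 5S particle (Rpl11, Rpl5), stalk genes (Rplp0, Rplp2, Rpl12), abundant genes (Rpl13, Rps27), a fusion gene (Fau) and Rps6. Each runs 5′ to 3′ on the strand of the gene from 10 bases before the start through 20 bases from it, and capitals mark its longest run of pyrimidines.
Rpl39, chrX:37085203-37085232, minus strand: gctccgcctctagcgaCTTCTTCTaatcgc
Rpl37, chr15:5116603-5116632, plus strand: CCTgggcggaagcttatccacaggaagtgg
Rpl23, chr11:97782420-97782449, minus strand: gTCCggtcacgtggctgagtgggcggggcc
Rpl11, chr4:136053374-136053403, minus strand: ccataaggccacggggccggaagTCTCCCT
Rpl5, chr5:107900518-107900547, plus strand: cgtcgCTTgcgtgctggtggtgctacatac
Rplp0, chr5:115559457-115559486, plus strand: cgggtttcgaggaccgcctggTTCTCCTat
Rplp2, chr7:141447641-141447670, plus strand: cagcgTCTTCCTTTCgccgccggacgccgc
Rpl12, chr2:32961702-32961731, plus strand: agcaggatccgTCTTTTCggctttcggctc
Rpl13, chr8:123102340-123102369, plus strand: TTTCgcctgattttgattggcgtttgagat
Rps27, chr3:90213629-90213658, minus strand: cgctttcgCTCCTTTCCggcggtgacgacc
Fau, chr19:6057937-6057966, plus strand: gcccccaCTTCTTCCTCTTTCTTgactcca
Rps6, chr4:86857348-86857377, minus strand: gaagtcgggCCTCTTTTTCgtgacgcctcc
The longest pyrimidine runs in these windows were 3 to 16 bases long, and 5 of the 12 windows (41.7%) had a run of at least 8, as did 25 of the 60 genes (41.7%) and 13% of all genes over the same bases. The run was longest in Fau, and in Rpl37, Rpl23, Rpl5 and Rpl13 it was 4 bases or fewer. Over the whole window of 250 bases before to 50 after the start, CTCTTTCC on the strand of the gene occurred in 8 of 60 ribosomal protein genes (13.3%) and in 1.76% of all genes. CCGGAAG, the core bound by ETS factors, occurred on either strand in 24 of 60 (40%), against 9.93% of all genes. TATAAA, the TATA box letters, occurred on either strand in 11.7% of them and in 15.7% of all genes, and on the strand of the gene in 10% and 9.77%. AAGATGGC, the YY1 core, was found on either strand in 11.7% and 3.19%. CCGGAAG and AAGATGGC were searched independently and could overlap the pyrimidine runs.

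Together the 81 genes took 11.7% and 11.4% of the summed FPKM in the B-1a libraries (replicates 1 and 2) and 7.63% and 9.76% in the B-1b libraries. Both B-1b libraries were below both B-1a libraries, and the B-1b libraries were further apart than the B-1a libraries. The means were 11.5% ± 0.197 and 8.69% ± 1.504 (SD, n = 2 libraries each), a difference of -2.83 percentage points (exact two-sided permutation test, p = 0.33, the smallest p that 2 against 2 allow). Without B-1b replicate 1 the difference was -1.76 points, and without B-1b replicate 2 it was -3.89 points. The share of the 60S genes was 6.73%, 6.84%, 4.54% and 5.77% in B-1a replicates 1 and 2 and B-1b replicates 1 and 2, in this order. That of the 40S genes was 4.93%, 4.54%, 3.08% and 3.99%. The ratio of summed 60S to 40S FPKM was 1.44 ± 0.101 for the B-1a libraries and 1.46 ± 0.0195 for those of B-1b (SD, n = 2), so it differed by less than the spread between the B-1a libraries. Leaving immunoglobulin genes out of the total gave shares of 12.9%, 12.4%, 8.35% and 10.6%.

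**Figure D1:**
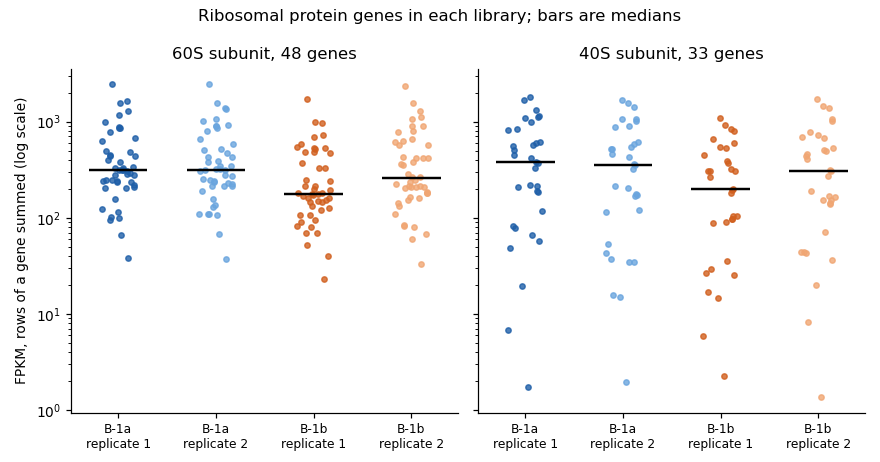
Level of each ribosomal protein gene (points, FPKM on a log axis) in the 4 libraries, by subunit, with the median as a bar. The medians of the 60S genes were 311 and 317 FPKM in B-1a against 179 and 257 FPKM in B-1b, and those of the 40S genes 381 and 350 FPKM against 197 and 306 FPKM.

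Across the genes, levels in B-1b were mostly below those in B-1a. The log2 fold change (B-1b over B-1a, on log2(FPKM + 1)) was below 0 in 72 of 81 genes (88.9%), against 43.8% of the 7557 genes tested. Its median was -0.45 (quartiles -0.59 and -0.29), against 0.05 over all genes tested. Of the 60S genes, 45 of 48 were lower (median -0.44), as were 27 of 33 of the 40S genes (median -0.53). In 55 genes (67.9%) both B-1b libraries were below both B-1a libraries, against 17.3% of all genes tested. In 2 genes, Rpl29 and Rpl7l1 (2.47%), both were above, against 25.8% of all genes. The groups overlapped in the remaining 24.

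**Figure D2:**
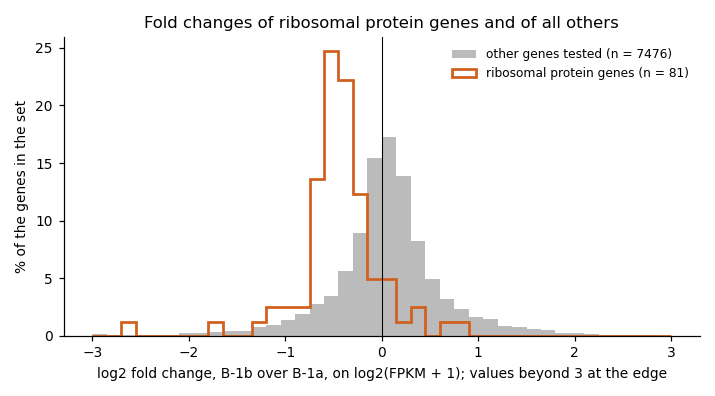
Log2 fold change (B-1b over B-1a) for the 81 ribosomal protein genes (orange line) and the 7476 other genes tested (grey bars), each as a percentage of its set. The orange distribution is shifted to the left, with a median of -0.45, while the median of all 7557 genes is 0.05.

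No ribosomal protein gene passed a false discovery rate (FDR) of 0.05 in limma, which called 15 of 7557 genes (0.198%), 3 of them lower in B-1b (0.0397%) and 12 higher (0.159%). At an unadjusted p under 0.05 there were 15 ribosomal protein genes (18.5%, against 9.66% of all genes). Of these, 14 were lower in B-1b (17.3%, against 4.27%) and 1, Rpl29, was higher (1.23%, against 5.39%). An ordinary linear model, which estimates the spread from each gene by itself, gave 0 at the FDR and 3 at the unadjusted threshold (3.7%, below the 8.69% of all genes). The count of 15 was 5 without B-1a replicate 1 (6.17%, against 7.2% of all genes then tested) and 3 without B-1a replicate 2 (3.7%, against 8.02%), both below the share over all genes. It was 59 without B-1b replicate 2 (72.8%, against 15.2%).

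The size of the difference depended on the B-1b library. The summed FPKM of all genes also differed, at 346147 and 344980 in B-1a against 324330 and 366992 in B-1b replicates 1 and 2. Levels of single genes are given without rescaling to equal totals. After such rescaling, 62 of the 81 genes were lower in B-1b without overlap, against 55 before, and the median log2 fold change was -0.45. B-1b replicate 1 was below both B-1a libraries in 72 genes (88.9%, against 33.8% of all genes), and its median difference from the B-1a mean was -0.77 on the log2 scale, against 0.07 over all genes. B-1b replicate 2 was below both B-1a libraries in 57 genes (70.4%, against 32% of all genes), with a median of -0.20, against 0.07 over all genes. Replicate 1 was below replicate 2 in 76 of 81 genes (93.8%, against 50.5% of all genes), with a median difference of 0.53 between them. In 52 genes (64.2%, against 10.5% of all genes) the order was B-1b replicate 1, then B-1b replicate 2, then both B-1a libraries. The B-1a libraries were within 10% of each other in 56 genes (69.1%, against 35.6% of all genes), with a median difference of -0.00220, and the B-1b libraries in 1 gene (1.23%, against 21.7%). Which library is the more typical of B-1b cannot be told from 2 libraries.

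**Figure D3:**
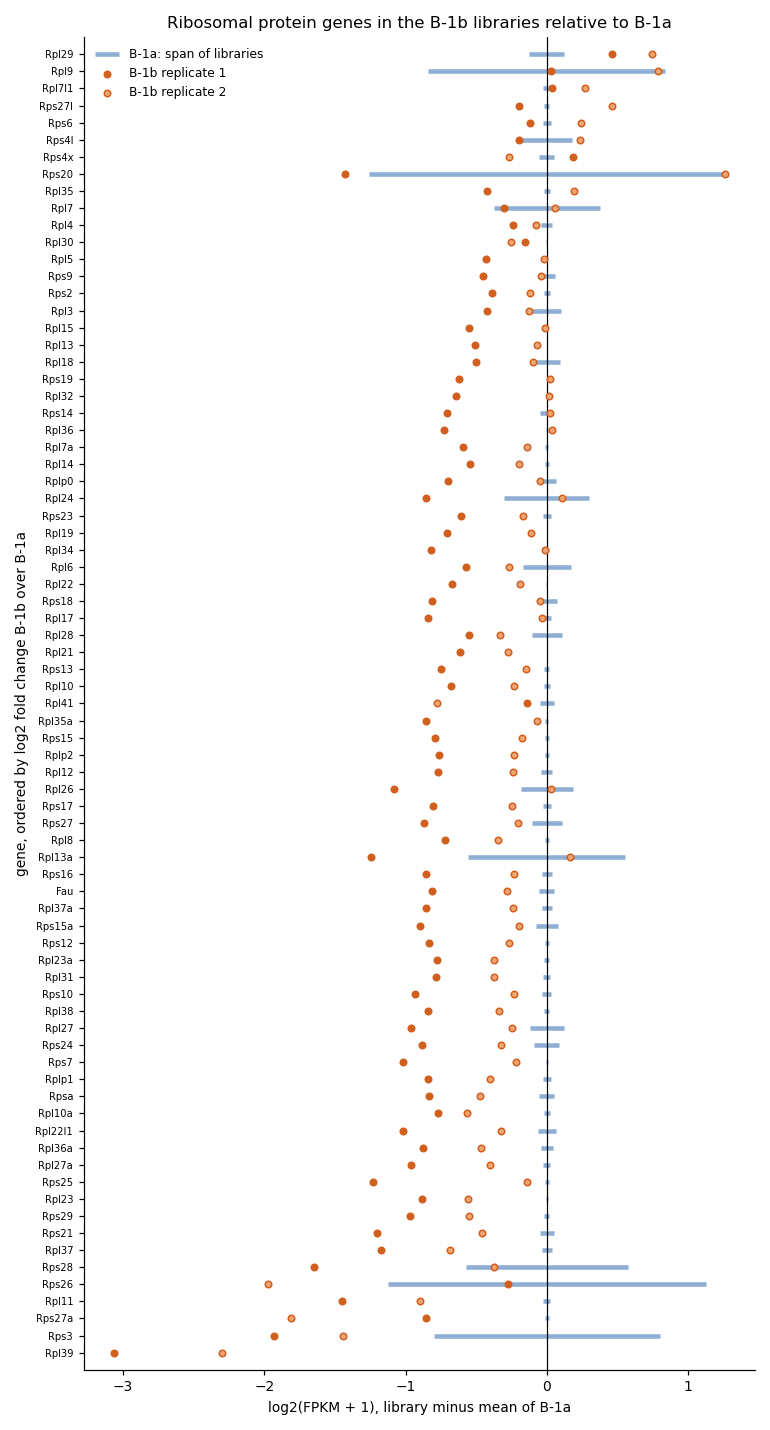
Ribosomal protein genes (77 of 81) in B-1b replicate 1 (filled) and replicate 2 (open) as the difference in log2(FPKM + 1) from the B-1a mean, with the span of the B-1a libraries as a blue bar, ordered by fold change. Over all 81 genes the median is -0.77 for replicate 1 and -0.20 for replicate 2, and Rpl39 stands at the bottom with both libraries below -2.

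Rpl39, a small protein in the wall of the exit tunnel, had the greatest difference of the 81 genes. Its level was 341 FPKM in both B-1a libraries and 39.98 and 68.3 FPKM in B-1b. The B-1b libraries were thus at 15.9% of the B-1a mean, and the groups did not overlap. The log2 fold change was -2.68 ± 0.30 (SE, adjusted p = 0.149), and it was between -3.06 and -2.30 when any library was left out. The gene lies on the X chromosome (GRCm38 chrX:37082520-37085402, minus strand, GENCODE M21), and it has 1 row in the table. The other 8 genes of the exit tunnel rim (Rpl17, Rpl19, Rpl22, Rpl23a, Rpl26, Rpl31, Rpl35 and Rpl38) had log2 fold changes between -0.59 and -0.12, all lower in B-1b. A fold change below 0 was found in 43.8% of all genes and 88.9% of the 81. Of the 9, 7 were lower without overlap (77.8%, against 17.3% of all genes and 67.9% of the 81).

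Rpl11, which with Rpl5 and 5S rRNA forms a particle of the large subunit that also binds MDM2, was at 246 and 255 FPKM in B-1a against 91.3 and 134 FPKM in B-1b. The groups were separate, with a log2 fold change of -1.17 ± 0.24 (SE, adjusted p = 0.283). Rpl5 was at 236 and 238 FPKM in B-1a against 176 and 234 FPKM in B-1b (-0.22 ± 0.20, adjusted p = 0.735). B-1b replicate 2 thus nearly reached the B-1a level for Rpl5 and not for Rpl11, the other protein of the same particle.

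Rpl37, a zinc-finger protein of the large subunit, was at 330 and 347 FPKM in B-1a against 149 and 210 FPKM in B-1b (-0.93 ± 0.22, adjusted p = 0.349). Its difference came from a single row of the table, a transcript at 144 and 181 FPKM in B-1a that was listed at 0 in both B-1b libraries. Its most abundant row overlapped between groups, at 178 and 158 FPKM in B-1a against 125 and 194 FPKM in B-1b, so that taking only this row gave -0.11. Rpl23 (244, 242, 131 and 165 FPKM in the order given above, -0.72 ± 0.18, adjusted p = 0.361) had groups without overlap. Rpl10a was at 278, 270, 160 and 185 FPKM (-0.67 ± 0.16, adjusted p = 0.344), again without overlap. Taking only its most abundant row moved Rpl10a to -0.01.

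The P stalk of the large subunit, which recruits elongation factors, is built from Rplp0, Rplp1 and Rplp2 on Rpl12. All 4 genes had a fold change below 0 (43.8% of all genes and 88.9% of the 81), with a median of -0.50 on the log2 scale. Rplp1 was at 853 and 889 FPKM in B-1a against 487 and 659 FPKM in B-1b (-0.62 ± 0.22, adjusted p = 0.515). Rplp2 was at 308 and 314 FPKM against 183 and 264 FPKM, and Rpl12 at 210 and 222 FPKM against 126 and 183 FPKM. These 3 genes were separate between the groups (75%, near the 67.9% of the 81 and against 17.3% of all genes). Rplp0, at 1161 and 1062 FPKM in B-1a against 685 and 1074 FPKM in B-1b, overlapped.

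On the small subunit, Rps27a encodes a fusion of ubiquitin with a ribosomal protein. It was at 596 and 583 FPKM in B-1a against 325 and 167 FPKM in B-1b (-1.33 ± 0.36, adjusted p = 0.395), without overlap. It was an exception to the order of the B-1b libraries, since here replicate 2 was the lower. Fau, in which a ubiquitin-like protein is fused to a small subunit protein, was at 559 and 519 FPKM against 306 and 443 FPKM (-0.55 ± 0.24, adjusted p = 0.588). In Fau, too, both B-1b libraries were below both B-1a libraries.

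Among the genes that line the mRNA channel or its exit, Rpsa, which is also known as the laminin receptor, was at 980 and 909 FPKM in B-1a against 529 and 681 FPKM in B-1b (-0.65 ± 0.21, adjusted p = 0.477). Rps29, another small subunit protein, was at 1077 and 1050 FPKM against 544 and 726 FPKM (-0.76 ± 0.22, adjusted p = 0.418). Both were separate between groups. All 7 genes of the channel list (Rps2, Rps3, Rps14, Rps23, Rps26, Rpsa and Rps28) were lower in B-1b, with a median of -0.65. Of all genes, 43.8% were lower, and of the 81, 88.9%. Without overlap, 4 of the 7 were lower (57.1%, against 17.3% of all genes and 67.9% of the 81). Rps3 was at 56.7 and 174 FPKM in B-1a against 25.4 and 36.0 FPKM in B-1b (-1.69 ± 0.60, adjusted p = 0.507), with its B-1a libraries 3.07-fold apart. It is also the gene whose replicate 3 columns depart from the pattern described above.

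The 19 listed genes whose human counterparts carry mutations in Diamond-Blackfan anemia, a failure of red cell production, were all lower in B-1b (median -0.55). For comparison, 43.8% of all genes and 88.9% of the 81 were lower. Of the 19, 14 were lower without overlap (73.7%, against 17.3% of all genes). This share was near the 67.9% of the whole family. Rps19, the gene most often mutated, was at 1672 and 1671 FPKM in B-1a against 1086 and 1700 FPKM in B-1b. In FPKM not rescaled to equal totals, B-1b replicate 2, the library with the highest total, was thus at the B-1a level. The log2 fold change of -0.30 ± 0.29 (adjusted p = 0.753) changed sign, to 0.02, without B-1b replicate 1.

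In other abundant genes, too, B-1b replicate 2 was closer to B-1a than replicate 1. Rpl13, the most abundant of the 81, was at 2439 and 2443 FPKM in B-1a against 1716 and 2322 FPKM in B-1b (-0.29 ± 0.26, adjusted p = 0.733). Rpl32 was at 1551 and 1556 FPKM against 995 and 1568 FPKM, and Rps14 at 1316 and 1402 FPKM against 834 and 1380 FPKM. In Rpl32 and Rps14, too, the sign turned without B-1b replicate 1, to 0.01 and 0.02, again without rescaling to equal totals. Rps27 (1819, 1566, 925 and 1467 FPKM) and Rpl37a (1284, 1345, 727 and 1112 FPKM) had groups without overlap. Rps18 (1111, 1007, 602 and 1025 FPKM) and Rps9 (1147, 1062, 805 and 1073 FPKM) overlapped. The 10 most abundant genes held 37.5% and 36.9% of the family's FPKM in B-1a and 37.7% and 39.1% in B-1b. The order of the genes by level was alike in all 4 libraries (Spearman's rho across the 81 genes 0.920 to 0.968 between libraries, a description, since genes share each library's depth and composition). Across 80 genes, log2 fold change and the length of the longest coding transcript had a rho of 0.31, and log2 fold change and level one of 0.12, given likewise as descriptions.

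The fold change was above 0 in 9 genes. Rpl29, a large subunit protein, was at 114 and 136 FPKM in B-1a against 172 and 209 FPKM in B-1b (0.60 ± 0.19, adjusted p = 0.457). The groups did not overlap, and the fold change was between 0.46 and 0.75 when any library was left out. The main row of Rpl29 was at 71.5 and 74.5 FPKM in B-1a against 120 and 124 FPKM in B-1b. Rps6, the substrate of the S6 kinases downstream of mTOR, was at 415 and 432 FPKM against 390 and 502 FPKM (0.06 ± 0.20, adjusted p = 0.938), with the B-1b libraries on both sides of B-1a. Of the 4 paralogs in the table, 3 were among them (75%, against 56.2% of all genes). Rpl7l1 was at 65.7, 68.2, 68.8 and 80.9 FPKM, Rps27l at 117, 120, 103 and 163 FPKM and Rps4l at 19.4, 14.997, 14.8 and 20.2 FPKM. The fourth, Rpl22l1, was at 101, 110, 51.7 and 84.2 FPKM (-0.67 ± 0.28, adjusted p = 0.569). Rpl9, also with a fold change above 0, had libraries far apart within a group.

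In 10 genes (12.3%, against 23.6% of all genes) the libraries of a group were over 2-fold apart. Rpl9 was at 289 and 926 FPKM in B-1a against 528 and 894 FPKM in B-1b, and its fold change of 0.41 ± 0.66 (adjusted p = 0.862) turned to -0.43 without B-1a replicate 1. Rps20 was at 6.81 and 43.5 FPKM in B-1a against 5.91 and 43.6 FPKM in B-1b, so that it split by replicate number and not by group. Rps26 was at 78.5 and 15.7 FPKM against 29.1 and 8.29 FPKM, and Rps28 at 83.0 and 36.9 FPKM against 17.0 and 42.6 FPKM. Rpl13a was at 280 and 129 FPKM in B-1a against 79.7 and 213 FPKM in B-1b. Rps3, given above, Rpl26 and Rps25 were also among the 10. Without the 10 genes, 65 of 71 were lower in B-1b, with a median of -0.44.

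**Figure D4:**
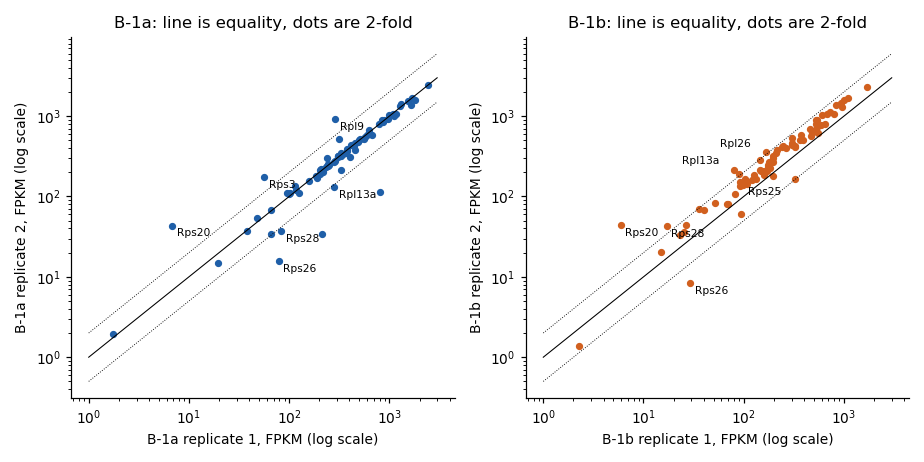
Level of each ribosomal protein gene in the libraries of a group (FPKM on log axes), with equality as a solid line and 2-fold as dotted lines, and names for the described genes beyond 2-fold. In B-1a, 8 genes lie beyond 2-fold and the others follow equality, whereas in B-1b, 6 lie beyond it and 76 of 81 are above the line, higher in replicate 2.

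Rows of the table are transcripts, and 70 of the 81 genes had several. Of 184 rows with a mean of at least 10 FPKM, 155 were lower in B-1b (84.2%, against 48.4% of the 4927 rows of the table at this level) and 29 higher. Without overlap, 89 were lower (48.4%, against 19.5%) and 5 higher (2.72%, against 22.7%). In 20 of 60 genes with several such rows (33.3%, against 56.2% of 672 genes), rows went in opposite directions. In Rps13, one row was at 121 and 144 FPKM in B-1a against 152 and 236 FPKM in B-1b, and another at 378 and 370 FPKM against 143 and 214 FPKM. The rows of Rps13 were each separate between groups, while their sum was -0.45 ± 0.26 (adjusted p = 0.655). In Rps6 the main row was at 247 and 227 FPKM in B-1a against 355 and 260 FPKM in B-1b, and the next at 150 and 193 FPKM against 26.2 and 222 FPKM. Rpl7a, Rpl15, Rpl18, Rpl24, Rpl30, Rpl34, Rps2, Rps7 and Rps16 also had rows in opposite directions. Their summed levels had log2 fold changes of -0.62 (Rps7) to -0.20 (Rpl30), with adjusted p-values of 0.608 to 0.784 in limma, and 7 of the 9 were lower without overlap (77.8%, against 17.3% of all genes and 67.9% of the 81). Rpl24 and Rpl34 overlapped between groups. How reads of near-identical copies and of overlapping transcripts were divided among rows was not given in the sources used here, so the value of a single row is less certain than the sum of a gene. Rps4x, a small subunit gene that cells use throughout, was listed at 1.76, 1.97, 2.26 and 1.37 FPKM.

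Other genes of the same program were compared from lists chosen by function. Of 19 tested partners whose mRNAs also carry a TOP motif, such as elongation factors, 15 were lower in B-1b (78.9%, against 43.8% of all genes), with a median of -0.17. Without overlap, 4 were lower (21.1%, near the 17.3% of all genes) and 2, Nap1l1 and Vim, were higher (10.5%, against 25.8%). Eef1a1, the most abundant of them, which brings tRNAs to the ribosome, was at 1692 and 1553 FPKM in B-1a against 1165 and 1624 FPKM in B-1b (-0.24 ± 0.26, adjusted p = 0.772). Tpt1 was at 562 and 567 FPKM against 461 and 671 FPKM, and Eif3f, a subunit of initiation factor 3, at 78.2 and 83.4 FPKM against 60.3 and 65.1 FPKM. The median of these partners lay between that of the ribosomal protein genes and that of all genes tested.

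Genes that assemble ribosomes were near the background in their directions. Of 44 tested, 19 were lower in B-1b (43.2%, against 43.8% of all genes) and 25 higher, with a median of 0.10. Without overlap, 6 were lower (13.6%, against 17.3%) and 13 higher (29.5%, against 25.8%). Polr1e, a subunit of RNA polymerase I, was at 4.72 and 6.25 FPKM in B-1a against 13.98 and 13.5 FPKM in B-1b (1.19 ± 0.21, adjusted p = 0.257). Dkc1, the pseudouridine synthase dyskerin, was at 50.7 and 51.7 FPKM against 76.9 and 81.2 FPKM (0.62 ± 0.14, adjusted p = 0.319). Rpf1, a factor of large subunit assembly, was at 23.4 and 25.8 FPKM against 17.8 and 16.3 FPKM (-0.51 ± 0.16, adjusted p = 0.468). None of the partners and none of the assembly genes passed the FDR in limma, and 0 and 3 of them (0% and 6.82%, below the 9.66% of all genes) had an unadjusted p under 0.05.

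Of 13 tested genes of mTOR signaling and TOP control, 8 were lower (61.5%, against 43.8% of all genes) and 5 higher (median -0.07). Without overlap, 2, Rheb and Myc, were lower (15.4%, near the 17.3% of all genes) and 1, Tsc2, was higher (7.69%, against 25.8%). Myc was at 41.8 and 43.8 FPKM in B-1a against 15.9 and 13.5 FPKM in B-1b (-1.49 ± 0.16, adjusted p = 0.149), without overlap, and the only one of the list at an unadjusted p under 0.05 (7.69%, below the 9.66% of all genes). Mtor was at 1.59, 2.16, 4.21 and 1.69 FPKM and Larp1 at 6.45, 15.02, 8.83 and 4.79 FPKM. Whether the level of Myc bears on the ribosomal protein genes was not tested.

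**Figure D5:**
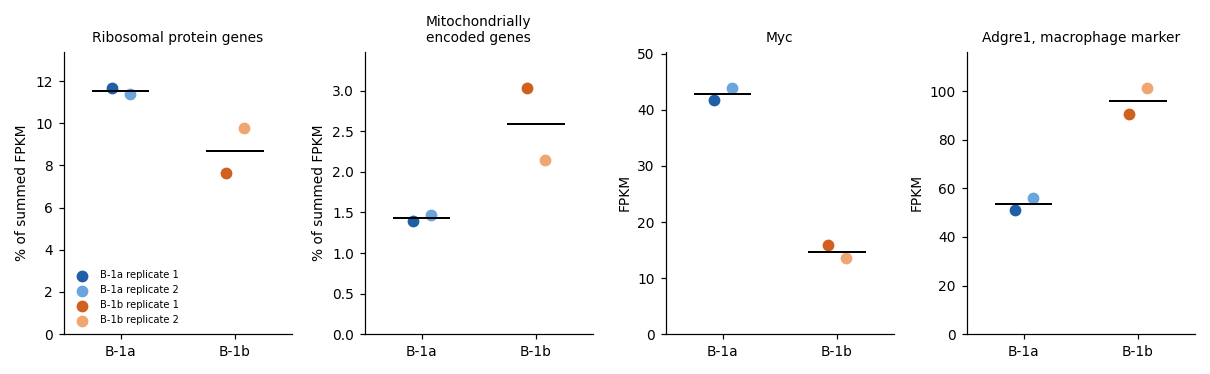
Share of summed FPKM in ribosomal protein genes and in mitochondrially encoded genes, and FPKM of Myc and of the macrophage marker Adgre1, in each library (points) with group means (bars). B-1b libraries are lower for ribosomal protein genes and Myc and higher for mitochondrially encoded genes and Adgre1, and B-1b replicate 1 is the extreme library in both share plots.

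Several other measures moved with the group. Mitochondrially encoded genes took 1.39% and 1.47% of the summed FPKM in B-1a and 3.03% and 2.15% in B-1b, with the highest share in B-1b replicate 1, the library with the lowest ribosomal protein share. Leaving these genes out of the total gave a difference in ribosomal protein share of -2.77 points. Markers of macrophages were present in all 4 libraries: 8 of 10 were in the table, their summed level was 3617 to 4793 FPKM in B-1a and 4490 to 7588 FPKM in B-1b, and 5 of 8 were higher in B-1b without overlap (62.5%, against 25.8% of all genes). Lyz2, which overlapped between groups, made up most of the sum. Without it the sums were 447 and 379.7 FPKM in B-1a against 563 and 764 FPKM in B-1b. Timd4, a marker of resident macrophages, was lower in B-1b without overlap, at 23.4 and 23.8 FPKM against 16.5 and 18.9 FPKM. Adgre1 was at 51.1 and 56.0 FPKM in B-1a against 90.4 and 101 FPKM in B-1b. Mast cell markers summed to 123 to 124 FPKM in B-1a and 129 to 223 FPKM in B-1b (5 of 6 in the table), and T cell markers to 121 to 155 FPKM and 64.4 to 65.3 FPKM (7 of 10). The T cell difference came from Cd2, and without it the sums overlapped, at 13.5 and 19.1 FPKM in B-1a against 14.4 and 12.9 FPKM in B-1b. The part of these cells in the ribosomal protein difference was not tested, and in bulk libraries fewer cells of a type and less RNA per cell cannot be told apart. Cd79a was at 2082 and 2219 FPKM against 1384 and 1646 FPKM. Cd5, which defines the groups at the protein level, was below 1 FPKM in all 4 libraries (0.446, 0.757, 0.895 and 0.737 FPKM), so its mRNA did not separate them.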

How the data were processed

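Poly(A) RNA of sorted PerC B-1a and B-1b cells was sequenced (3 labelled samples per group). Per the methods and processing notes, the authors used HISAT2 for alignment to GRCm38/mm10, StringTie for quantification and Ballgown for testing. Their versions and the annotation: not given in the sources used here. Values as deposited carry no unit and were read as FPKM per transcript: they are fractional and sum to 324330 to 366992 per library, and no whole-read steps were seen. Depth is therefore unknown, and the number of libraries limits the precision. B-1b replicate 3 equalled replicate 1 in 13722 of 13747 rows, and B-1a replicate 3 equalled the mean of replicates 1 and 2 in 13710 (relative tolerance 1e-06), so 2 libraries per group were used. No other 2 libraries shared more than 1 identical value above 0.

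Rows were summed per gene name. The 7557 genes that reached 1 FPKM in 2 or more of the 4 libraries were tested as log2(FPKM + 1), B-1b over B-1a, with limma 3.58.1 (R 4.3.3, intensity trend) and Benjamini-Hochberg adjustment over all of them. Fold changes on this scale understate changes of low genes. The step was tested on simulated data. Shares were compared by exact permutation over libraries. Coordinates are from GENCODE M21 (80 of 81 genes) and promoter sequences from RefSeq GRCm38.p6. Figures were drawn with Python 3.11.15 and matplotlib 3.10.9.

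The genes and lists were chosen with earlier results of these data known. Genes named are the 5 most abundant of each subunit, the 6 with the largest and the 6 with the smallest fold change (mean of at least 10 FPKM), the 6 with the smallest p, all of the stalk, 5S, fusion and paralog lists, Rps6, Rps19 and genes with rows of opposite direction. Of these, 4 genes are not reported singly here, and 9 with rows of opposite direction are given as a group. Rps20, Rps4x, Rps29 and the listed genes outside the family were added after their values were seen, and the starts to print were chosen after their sequences were seen. Lists of marker genes for T cells, macrophages, mast cells, neutrophils, NK cells, erythroid cells, platelets, plasma cells, B-2 cells and B-1 cells were summed. Alternatives were filters, pseudocount, scaling, libraries, rows, the replicate block and the members taken. Adding pseudogenes to their parent and leaving out genes with libraries over 2-fold apart were chosen after seeing the data.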

Additional observations from a re-analysis of the deposited data

How the results depend on the processing

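The count of lower genes was 62 to 75 and the median log2 fold change -0.77 to -0.20 when a library was left out (-0.77 without B-1b replicate 2), and 71 to 73 and -0.56 to -0.44 under the other settings. With names that the rule does not take, 74 of 84 were lower, and without genes over 2-fold apart, 65 of 71. The count of genes lower without overlap was 57 to 72 without a library and 42 to 63 otherwise, lowest when each gene was represented by its most abundant row. The share difference was -3.89 to -1.76 points without a library and -3.18 to -2.77 points otherwise. The 15 genes at an unadjusted p under 0.05 (18.5%, against 9.66% of all genes) became 23 with equal upper quartiles (28.4%, against 9.74%), 28 with equal totals (34.6%, against 9.27%), 30 with equal totals without immunoglobulin genes (37%, against 9.37%), 3 in a linear model per gene (3.7%, against 8.69%), 52 with all 6 columns (64.2%, against 33.6%) and 3 to 59 without a library (3.7% to 72.8%, against 7.2% to 15.2%). Genes at the FDR were 0 in every setting that kept both libraries of each group, except all 6 columns, where derived columns count as libraries. That setting gave 20 of the 81 genes, against 1241 of the 7674 genes then tested. All genes at the FDR numbered 15, 7 without a filter, 8 with the top row, 19 with B-1b replicates 1 and 3 as their mean, 0 in the linear model per gene and 0 when any library was left out.

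With the replicate number as a block, 9 of the 81 genes had an unadjusted p under 0.05 (11.1%, against 8.12% of all genes) and 0 of all genes passed the FDR. The labels share only a number, and deviations of same-numbered libraries had a correlation of 0.00124 over 7557 genes. In this balanced design the block leaves every fold change as it is and bears on the p-values only.

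Of 672 values for 42 named genes, 649 kept direction and side of the FDR, 9 passed it with all 6 columns and 14 changed sign, in 10 genes. Without a library the log2 fold change spanned -1.25 to 0.16 in Rpl13a, -0.85 to 0.11 in Rpl24, -0.64 to 0.014 in Rpl32, -0.43 to 1.25 in Rpl9, -0.70 to 0.022 in Rps14, -0.62 to 0.024 in Rps19, -2.25 to 0.0048 in Rps26, -0.19 to 0.46 in Rps27l, -0.19 to 0.23 in Rps4l and -0.12 to 0.24 in Rps6. Rps4l was also -0.025 with equal upper quartiles and -0.056 with all 6 columns. The causes were not tested. A test on counts was not run, because the values are not counts. With 2 libraries a group, the lone library left after an omission is assumed to vary like the others, and the depth of the libraries is unknown.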

Other observations

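Named pseudogenes of ribosomal proteins, 62 names in the table, took 0.357% and 0.342% of the summed FPKM in B-1a and 0.198% and 0.244% in B-1b. Their B-1b libraries were below their B-1a libraries, in the same order as the ribosomal protein genes. Whether reads of parent genes were assigned to them was not tested. Adding them to their parents gave a median log2 fold change of -0.46 for the 81 genes.

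Ribosomal protein names that the rule does not take were also measured. Rps3a1 was at 6.67 and 242 FPKM in B-1a against 150 and 119 FPKM in B-1b, Rpl36al at 237, 266, 193 and 278 FPKM and Rack1, a scaffold protein of the small subunit, at 329, 350, 213 and 338 FPKM. Rps3a1 was thus far apart within B-1a.

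Plasma cell markers summed to 391 and 407 FPKM in B-1a against 267 and 402 FPKM in B-1b, and without Mzb1 to 131 and 126 FPKM against 129.7 and 162 FPKM. B-2 markers summed to 1061 and 869 FPKM against 804 and 765 FPKM, and without Ighd the groups overlapped, at 625 and 539.6 FPKM against 591 and 524 FPKM. B cell and B-1 markers summed to 3959 and 3746 FPKM against 3398 and 3681 FPKM, and without Cd79a the direction turned, at 1877 and 1527 FPKM against 2014 and 2035 FPKM. The platelet marker Pf4 was at 136 and 106 FPKM against 209 and 272 FPKM, erythroid markers summed to 21.7 and 34.3 FPKM against 13.5 and 24.5 FPKM, the NK cell marker Nkg7 was at 7.87, 7.69, 4.67 and 5.86 FPKM and the neutrophil marker Csf3r was listed at 0 in B-1a replicate 1 and was at 0.182, 2.43 and 0.684 FPKM in the others.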
